A study of Homo sapiens with 4 samples.

Results

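The 10 genes described here make and sense transforming growth factor beta (TGFβ). They are the ligand genes TGFB1, TGFB2 and TGFB3, the antisense RNA TGFB2-AS1, the signalling receptors TGFBR1 and TGFBR2, the co-receptors TGFBR3 and ENG, and LTBP1 and LTBP2 of the latent TGFβ-binding protein family. They were chosen by name out of 34555 named genes in the deposited count table, and their 23 listed transcripts out of 65423. For each gene the transcript of highest mean count stood for the gene, and all 10 genes had a mean of at least 50 counts.

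RNA was sequenced from 2 human breast cancer cell lines to look for transcripts that are lower in the more metastatic one. MDA-MB-231 is a triple-negative line of mesenchymal form, here grown in L-15 medium with serum in air alone. MDA-MB-231-LM2 (LM2) is a subline of it selected for metastasis to the lung, here grown in DMEM with serum in air with added CO2. The medium and the gas therefore cannot be told apart from the line. Each line has 2 samples in the labels, but the table has 1 column of counts per line, and no source says if both samples went into it. No test between the lines was possible for that reason, and no p-value is given.

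The counts summed to 130689252 for MDA-MB-231 and to 128985870 for LM2. Each ratio below sets LM2 over MDA-MB-231, both divided by their column totals. The 95% intervals of ratios are exact (Clopper-Pearson), and they cover counting error, not the spread between cultures. Levels are RPKM, in which a count is scaled by the length of its transcript and by the column total, with an exact 95% Poisson interval where one is given. The line was checked by its markers. VIM (vimentin), CD44, MSN, AXL and CAV1 were all present in both columns, while ESR1 had 2 and 8 counts, PGR 7 and 2, and CDH1 (E-cadherin) 13 and 0, in MDA-MB-231 and LM2 in that order. Of the other markers meant to be absent or low, ERBB2 had 2966 and 1922 counts and EPCAM 361 and 355.

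TGFβ is secreted in a latent form, wrapped in its own propeptide, and LTBP proteins tie that complex to the extracellular matrix until proteases, integrins or thrombospondin release it. Free ligand joins the type II receptor TGFBR2 to the type I receptor TGFBR1, which phosphorylates SMAD2 and SMAD3. These enter the nucleus with SMAD4, while SMAD7 blocks the receptor. In breast epithelium the pathway restrains growth, and in advanced breast cancer it is known for driving invasion and metastasis.

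The sequences bearing on these genes come first. The 5′ end of TGFB2 lies opposite TGFB2-AS1, so the bases just before the RefSeq start of TGFB2 are shown, at chr1:218345086-218345335 (GRCh38.p14, plus strand). Capitals mark the 161 bases that lie opposite exon 2 of TGFB2-AS1. The 250 bases before the start of TGFB1 (chr19:41353923-41354172, minus strand) are shown for contrast, with GGGCGG or its reverse complement in capitals. Both are from RefSeq.
TGFB2 promoter: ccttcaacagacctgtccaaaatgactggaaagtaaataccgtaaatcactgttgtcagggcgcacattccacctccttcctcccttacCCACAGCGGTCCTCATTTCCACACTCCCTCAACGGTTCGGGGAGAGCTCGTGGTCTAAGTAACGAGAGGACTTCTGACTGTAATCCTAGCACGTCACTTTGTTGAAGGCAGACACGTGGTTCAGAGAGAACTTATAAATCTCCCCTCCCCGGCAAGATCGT
TGFB1 promoter: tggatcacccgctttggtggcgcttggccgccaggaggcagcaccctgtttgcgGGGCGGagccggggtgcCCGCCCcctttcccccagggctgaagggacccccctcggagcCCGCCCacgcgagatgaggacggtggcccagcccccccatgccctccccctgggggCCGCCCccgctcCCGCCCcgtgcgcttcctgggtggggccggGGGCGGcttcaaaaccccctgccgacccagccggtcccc

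The TGFB2 window held TATAAA 29 bases before the start. It held CACGTG, an E-box, at 49 bases, and TGACGT, the core of a cAMP response element, on the minus strand at 71 bases. These matches all fell among the bases opposite TGFB2-AS1. It also held CAGAC, the SMAD box, at 243 and at 53 bases, the latter sharing its last base with the E-box. TGFB1 had none of these letters and held GGGCGG, the GC box bound by SP1, in 6 places. Among 35116 RefSeq windows of 250 bases, searched on both strands, TATAAA was found in 10.7%, CACGTG in 6.34%, TGACGT in 7.10%, CAGAC in 38.0% and GGGCGG in 42.6%. The 10 genes had 21 such windows, of which 2 held TATAAA, 2 CACGTG, 3 TGACGT, 10 CAGAC and 8 GGGCGG. Of their genes, TATAAA and CACGTG were each found in those of TGFB2 and TGFB3, TGACGT in those of TGFB2, TGFB3 and LTBP1, and GGGCGG in those of TGFB1, TGFBR1, TGFBR2, TGFBR3 and LTBP2. TGANTCA, the AP-1 site, was in 6.57% of all windows and in none of these 21. A match is a run of letters and not a shown binding site.

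Exon 3 of TGFB2-AS1 lies wholly before either start of TGFB2, as do the capitals above from exon 2, and it is shown as the longest of the 3 exons (chr1:218344196-218344462, minus strand, GENCODE 29 on GRCh38). Capitals mark AATAAA, the letters of the polyadenylation signal, which occur in overlapping copies near its 3′ end.
TGFB2-AS1 exon 3: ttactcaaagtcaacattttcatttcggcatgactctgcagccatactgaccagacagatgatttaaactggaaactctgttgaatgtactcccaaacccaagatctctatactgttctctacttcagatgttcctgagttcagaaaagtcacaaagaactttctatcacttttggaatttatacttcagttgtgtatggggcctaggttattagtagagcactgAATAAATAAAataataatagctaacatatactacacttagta

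Longer and shorter transcripts of TGFB2, TGFBR2 and TGFBR1 differ by 1 coding exon each, and these exons are shown because the columns list both forms. They are exon 2 of TGFB2 (chr1:218363334-218363417), exon 2 of TGFBR2 (chr3:30623199-30623273) and exon 3 of TGFBR1 (chr9:99132509-99132739), all on the plus strand in GENCODE 29 on GRCh38. They encode 28, 25 and 77 codons.
TGFB2 exon 2: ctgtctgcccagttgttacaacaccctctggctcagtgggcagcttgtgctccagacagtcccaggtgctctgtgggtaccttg
TGFBR2 exon 2: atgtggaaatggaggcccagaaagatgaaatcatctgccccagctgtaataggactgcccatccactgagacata
TGFBR1 exon 3: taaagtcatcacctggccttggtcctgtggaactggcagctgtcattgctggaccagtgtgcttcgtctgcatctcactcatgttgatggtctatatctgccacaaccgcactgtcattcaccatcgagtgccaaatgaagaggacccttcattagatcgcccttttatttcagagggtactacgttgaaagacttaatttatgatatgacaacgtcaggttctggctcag

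In the genome the 10 genes lie apart, except for TGFB2 and its antisense partner. On GRCh38 in GENCODE 29, TGFB1 lies at chr19:41301587-41353911 (minus strand), TGFB2 at chr1:218346235-218444619 (plus) and TGFB3 at chr14:75958099-75982991 (minus). The receptor genes are TGFBR1 at chr9:99104038-99154192 (plus), TGFBR2 at chr3:30606502-30694142 (plus), TGFBR3 at chr1:91680343-91906335 (minus) and ENG at chr9:127815012-127854756 (minus). LTBP1 lies at chr2:32946972-33399509 (plus) and LTBP2 at chr14:74498170-74612378 (minus). The authors aligned to hg19, whose coordinates are not used here.

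LM2 cells had fewer counts of the ligands TGFB1 and TGFB2 and of TGFB2-AS1, fewer of TGFBR1, and more of both co-receptors and of LTBP1. TGFB2 (2.67-fold) and TGFB2-AS1 (3.08-fold) were the 2 of 10 that were over 2-fold lower, ENG (2.86-fold) was the 1 that was over 2-fold higher, and the other 7 genes lay within 2-fold. Of the 15440 named genes that reached a mean of 50 counts, 6.90% lay past 2-fold on the lower side and 4.58% on the higher side. The median log2 ratio of the 10 genes was -0.06, near that of all 15440 (-0.0043), so the genes as a group did not stand to 1 side. The intervals of TGFB3, TGFBR2 and LTBP2 took in 0, those of 4 genes lay wholly below 0 and those of 3 wholly above. With column totals taken without the 12 transcripts of highest mean count, or over NM_ transcripts alone, the interval of TGFB3 was the only 1 of the 10 to take in 0.

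**Figure D1:**
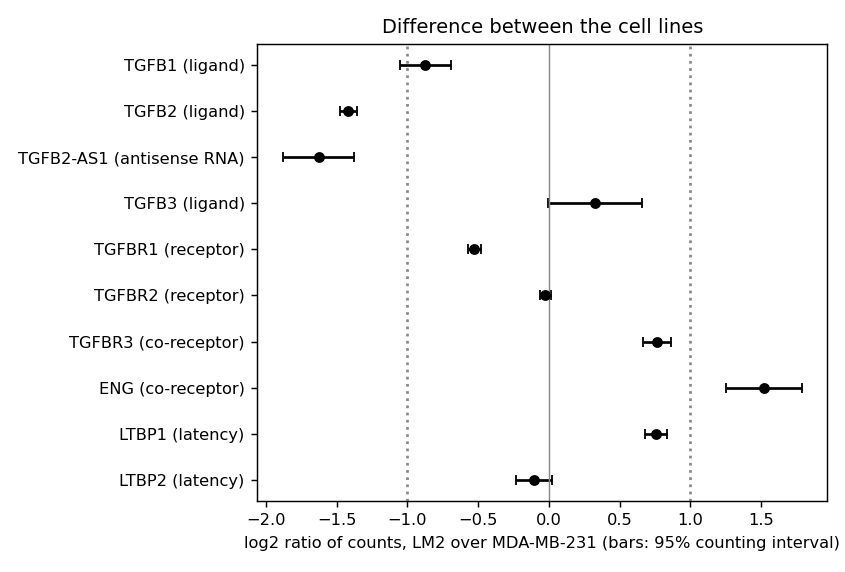
Log2 ratio of counts, LM2 over MDA-MB-231, for each of the 10 genes (points) with its 95% counting interval (bars). Dotted lines mark 2-fold. TGFB2 and TGFB2-AS1 lie left of the lower line, ENG right of the upper line, and the intervals of TGFB3, TGFBR2 and LTBP2 cross 0.

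TGFB2 was the most abundant ligand by RPKM in both lines and had the lowest ratio of the ligands. Its counts were 7928 in MDA-MB-231 against 2929 in LM2, or 10.2 and 3.81 RPKM. Its log2 ratio was -1.42 (-1.48 to -1.36), which lay at percentile 3.66 of all genes tested. TGFB2 encodes a ligand that binds TGFBR2 weakly by itself and relies on betaglycan, the product of TGFBR3, to reach it. Its other transcript, without exon 2, had 7921 and 2926 counts.

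TGFB1 encodes the ligand most often studied in carcinoma and was lower in LM2 too. The count was 712 in MDA-MB-231 against 384 in LM2, or 2.48 and 1.35 RPKM, a 1.83-fold lower level in LM2 (interval 1.61 to 2.08). TGFB3, the ligand best known from palate closure, went the other way by a small amount. It had 140 and 173 counts, or 0.337 and 0.421 RPKM, and the log2 ratio of 0.32 had an interval from -0.01 to 0.66, so a difference was not detectable at this depth. TGFB3 therefore ranked last of the ligands in both columns.

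Ratios between genes of 1 column do not depend on how the columns are scaled. The RPKM of TGFB2 was 4.11 times that of TGFB1 in MDA-MB-231 but 2.82 times in LM2, a 1.46-fold drop (interval 1.28 to 1.67). Against TGFB3 it was 30.3 times and 9.05 times. TGFB2 thus lost ground to each of the other ligands. The summed RPKM of the ligands was 13 in MDA-MB-231 against 5.59 in LM2, of which TGFB2 made up 78.4% and 68.2%, TGFB1 19.0% and 24.2%, and TGFB3 2.59% and 7.54%.

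**Figure D2:**
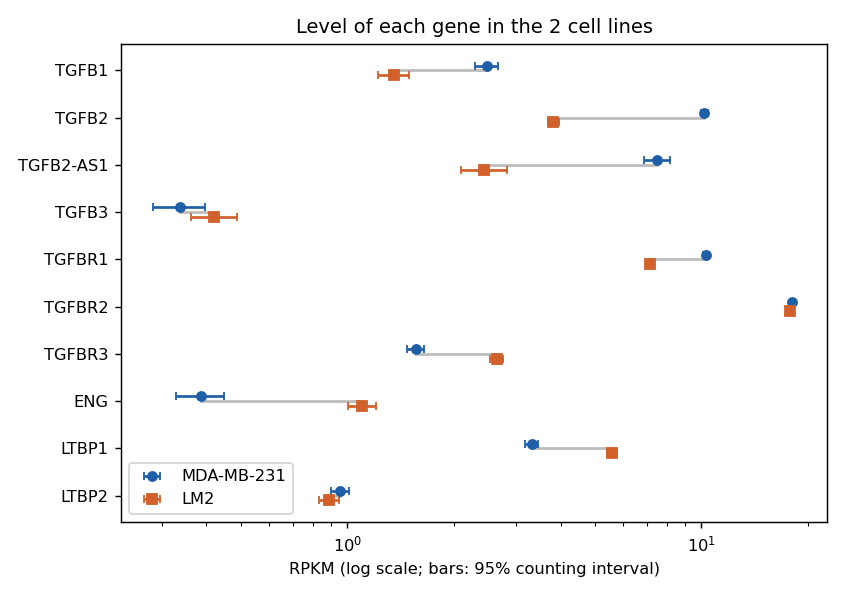
RPKM of each gene on a log axis in MDA-MB-231 (blue circles) and LM2 (orange squares), with 95% counting intervals and a grey line joining the 2 columns. TGFBR2 is highest in both, TGFB2 and TGFB2-AS1 have the longest shifts to the left, and ENG the longest to the right.

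TGFB2-AS1 is a non-coding RNA read from the strand opposite TGFB2. The MDA-MB-231 column had 546 counts and the LM2 column 175, or 7.50 and 2.44 RPKM, and the log2 ratio was -1.62 (-1.88 to -1.37). Its RefSeq and its Ensembl record have the same 557 bases and the same counts. The study itself picked this transcript as lower in LM2 from these columns, so its direction here is not independent evidence. Apart from the sequencing, the paper reports it lower in LM2 by qRT-PCR and knocked it down in migration assays. Set against TGFB2 within each column, its RPKM was 0.736 times that of TGFB2 in the parent line and 0.639 times in LM2. The interval of that change took in 1 (0.724 to 1.04), so no difference in drop between the pair was detectable.

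Both genes lie on chromosome 1. TGFB2-AS1 spans chr1:218344196-218345678 on the minus strand in 3 exons of 76, 214 and 267 bases. RefSeq starts TGFB2 at 218345336, which puts the start of TGFB2-AS1 342 bases inside TGFB2, and GENCODE 29 starts it 899 bases further in, which leaves a gap of 556 bases. The deposited length of the shorter TGFB2 transcript exceeds its GENCODE model by 901 bases, close to the difference between these starts. Of the 557 exon bases, 129 (23.2%) lie over the RefSeq span of TGFB2, 76 in exon 1 and 53 in exon 2.

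**Figure D3:**
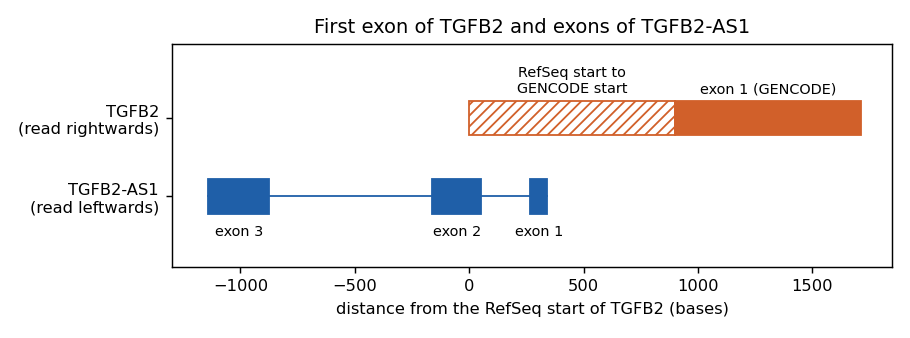
Exons of TGFB2-AS1 (blue) and the start of TGFB2 (orange), drawn to scale by distance in bases from the RefSeq start of TGFB2. The hatched block runs from the RefSeq to the GENCODE start, and exons 1 and 2 of TGFB2-AS1 reach into TGFB2 while exon 3 lies before it.

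No source says if the counting kept the strands apart, so reads of TGFB2 could enter those shared bases. At the mean density of TGFB2, 129 bases would hold 172 counts for MDA-MB-231 and 63.5 for LM2. Taking these off left 374 and 112 counts for TGFB2-AS1, a 3.31-fold lower level in LM2. This check was chosen after the values were seen, and it assumes reads spread evenly along TGFB2. The nearest other genes on each side with a mean of at least 50 counts differed little between the lines. RRP15, a ribosome biogenesis gene, had 3289 and 3159 counts, and LYPLAL1-DT, a divergent transcript, 192 and 197. Around the pair, the 29 nearest tested genes (15 on each side, less the partner) had a median log2 ratio of 0.06, and C1orf115, named after its value was seen, was the only 1 with a lower ratio than TGFB2.

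TGFBR2, the type II receptor that binds ligand first, was the most abundant of the 10 in both lines and nearly equal between them. Counts were 11107 in MDA-MB-231 against 10769 in LM2, or 18.1 and 17.8 RPKM. The log2 ratio was -0.03 (-0.06 to 0.01). Without the 12 transcripts of highest count in the totals it was -0.09 (-0.13 to -0.05). The interval under either scaling covers smaller differences than those of TGFB1 and TGFB2.

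TGFBR1, the type I receptor kinase that carries the signal inward, was lower in LM2. It had 8712 counts and 5973, or 10.3 and 7.15 RPKM, a 1.44-fold lower level (1.39 to 1.49). The form without exon 3 had 8297 and 5679 counts and the same direction. TGFBR2 was 1.75 times TGFBR1 by RPKM in MDA-MB-231 but 2.48 times in LM2, a rise of that ratio by 1.41 (1.36 to 1.48).

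The co-receptors were both higher in LM2. TGFBR3 encodes betaglycan, which presents ligand to TGFBR2 and can also be shed to hold ligand away from it. Its count was 1337 in MDA-MB-231 but 2239 in LM2, or 1.56 and 2.64 RPKM, a 1.70-fold higher level (1.58 to 1.82). The transcript standing for it is a non-coding RefSeq record that led the coding form by 1 count in MDA-MB-231 and none in LM2. Set against TGFBR1 by RPKM, TGFBR3 went from 0.151 to 0.370 times, a 2.44-fold gain (2.26 to 2.64).

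ENG encodes endoglin, a co-receptor best known in endothelium, where it favours signalling through ACVRL1. It had the largest ratio of the 10, with 161 counts in MDA-MB-231 against 455 in LM2, or 0.385 and 1.10 RPKM. The log2 ratio was 1.52 (1.26 to 1.79), at percentile 97.7 of all genes tested. Even so its level stayed below that of TGFBR3, at 0.247 times in the parent line and 0.417 times in LM2. The difference rests on low counts, and on the log2(RPKM + 1) scale it was 0.60. ACVRL1, the partner kinase, had 6 counts and 25, under the minimum of 50.

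Endothelial markers were read beside ENG because endothelial cells express it strongly. Of 8 markers, 4 reached a mean of 50 counts. PECAM1 went from 48 counts in MDA-MB-231 to 343 in LM2 and TIE1 from 34 to 263, while KDR went from 1138 to 495 and ESAM from 4645 to 3224. Of these 4, 2 were higher in LM2, as ENG was, and 2 were lower. PECAM1 and TIE1 were under 50 counts in MDA-MB-231 and reached that mean through LM2. CDH5 (VE-cadherin) had 0 counts in both columns, a limit of 3 counts in each, and VWF had 10 and 19, TEK 2 and 5, and CLDN5 16 and 18. Of the 7 markers with counts, 5 were higher in LM2 and 2 lower, but the intervals of VWF, TEK and CLDN5 took in 0. The summed RPKM of the 8 markers was 20.7 for MDA-MB-231 and 15.2 for LM2, of which ESAM was the largest part. Without ESAM, a sum chosen after the values were seen, the other 7 came to 1.65 and 1.83, with the order of the lines turned. Their part in the ENG result was not tested, and fewer cells of a type and less RNA per cell cannot be told apart in bulk RNA.

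Leukocyte and fibroblast markers were read as well. PTPRC, the pan-leukocyte marker, had 8 and 7 counts, ITGAM 0 and 5, and CD3E 0 in both columns, while CD68, a lysosomal protein, had 5583 and 4266. Of 7 fibroblast markers, 3 reached the minimum, with COL1A2 at 193 and 22 counts, PDGFRB at 525 and 183, and COL1A1 at 209 and 532. The summed RPKM of the 7 was 1.55 and 1.05.

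ENG also shares 313 exon bases with AL162586.1, a gene annotated on the other strand in GENCODE 29. The table lists 2 of its transcripts. ENST00000425991.1 had 37 and 90 counts, and ENST00000439298.1 had 223 and 264. Taking off the counts that either would hold on the shared bases at its mean density moved the log2 ratio of ENG to 1.54 or 1.59, a check chosen after the values were seen. The other antisense overlaps were smaller in counts. TGFB3-AS1 shares 163 bases with TGFB3 and had 14 and 11 counts. AC013451.1 shares 207 bases with LTBP2 and had 35 and 21. AC019127.1 shares 249 bases with LTBP1 and has no transcript among those analysed here.

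By RPKM the receptors and co-receptors summed to 30.3 in MDA-MB-231 against 28.7 in LM2, so the sum differed far less than that of the ligands. TGFBR2 held 59.6% and 62.0% of it, TGFBR1 34.0% and 25.0%, TGFBR3 5.14% and 9.23%, and ENG 1.27% and 3.85%. TGFBR1 lost share and both co-receptors gained it.

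The latency proteins differed from each other. LTBP1 binds the latent complex of each ligand and anchors it to fibrillin and fibronectin. It had 2291 counts in the parent line and 3821 in LM2, or 3.31 and 5.60 RPKM, a 1.69-fold higher level (1.60 to 1.78). LTBP2 belongs to the same family but does not bind latent TGFβ. It had 1066 and 979 counts, or 0.954 and 0.887 RPKM, with a log2 ratio of -0.10 (-0.23 to 0.02). The RPKM of LTBP1 was 3.47 times that of LTBP2 in MDA-MB-231 but 6.31 times in LM2. Against TGFB1 it was 1.34 times and 4.14 times, a 3.09-fold gain (2.70 to 3.55).

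Ordered by RPKM in MDA-MB-231, TGFBR2 was followed by TGFBR1 and TGFB2, then TGFB2-AS1, LTBP1, TGFB1, TGFBR3, LTBP2, ENG and TGFB3. Of neighbours in that order, TGFBR1 and TGFB2 overlapped in their intervals (10.1 to 10.5 and 9.97 to 10.4), as did ENG and TGFB3 (0.328 to 0.449 and 0.283 to 0.397). In LM2 the order was TGFBR2, TGFBR1, LTBP1, TGFB2, TGFBR3, TGFB2-AS1, TGFB1, ENG, LTBP2 and TGFB3. There the intervals of TGFBR3 and TGFB2-AS1 overlapped (2.54 to 2.76 and 2.09 to 2.82) and those of the other neighbours did not. LTBP1 stood above TGFB2 in LM2 and below it in MDA-MB-231. Among all genes tested, TGFBR2 lay at percentile 89.3 of RPKM in the parent line and 88.4 in LM2, and TGFB2 at 80.1 and 56.5.

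The transcripts of each gene had ratios of the same sign. They share reads and are not replicates. The widest gap was between ENG transcripts, at log2 ratios of 1.52 (NM_000118), 1.58 (NM_001114753) and 1.53 (NM_001278138). LTBP1 was next. Its long form, NM_206943, has 860 bases more than NM_000627, yet had 36 counts more in MDA-MB-231 and 97 fewer in LM2, with a log2 ratio of 0.70 against 0.76. The remaining 3 LTBP1 transcripts lay at 0.76.

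Bases held by 1 form alone added few counts in some genes. Exon 2 of TGFB2, printed above, goes with 7 more counts of the longer transcript in MDA-MB-231 and 3 in LM2, over 84 bases. Over the whole transcript TGFB2 had 1.33 counts per base and 0.492, against 0.0833 and 0.0357 for those added bases. Exon 2 of TGFBR2 goes with 24 and 22 more counts over 75 bases. Exon 3 of TGFBR1 is unlike both, with 415 and 294 more counts over its 77 codons, or 1.80 and 1.27 per base against 1.35 and 0.923 for the whole. No source says how the authors assigned reads to transcripts, so these differences are not levels of the forms.

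**Figure D4:**
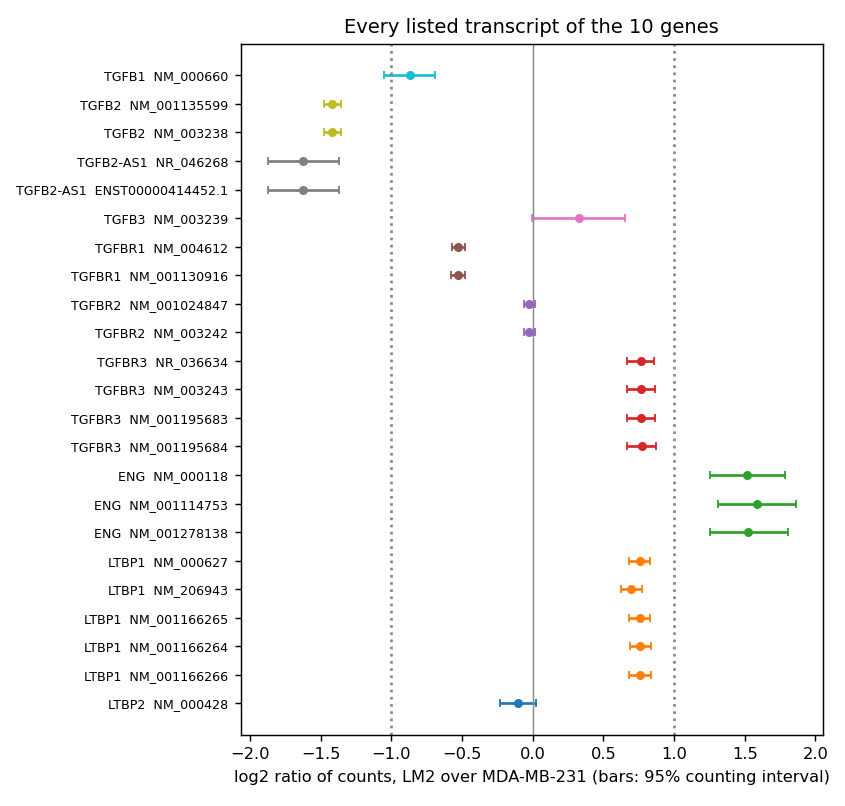
Log2 ratio of counts, LM2 over MDA-MB-231, for all 23 listed transcripts (points, 1 colour per gene) with 95% counting intervals (bars). Transcripts of 1 gene share reads and lie close together, and no gene has transcripts on both sides of 0.

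The other genes of the pathway were taken as 5 lists of 97 genes in all, of which 75 had a mean of at least 50 counts. Of these 75, 10 (13.3%) were lower by over 2-fold and 5 (6.67%) were higher. Among those 5, MMP2 and PTHLH were under 50 counts in MDA-MB-231 and reached the minimum through LM2. Over all 15440 named genes at that minimum these shares were 6.90% and 4.58%. The median log2 ratio of the 75 was -0.34 with 48 below 0, against a median of -0.0043 over all 15440. Some genes (PMEPA1, SKIL and SMAD7) are in a pair of lists. The lists were chosen with results of these data known, and their counts are descriptions.

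Genes that store or release latent TGFβ had no common direction. Of 24, 16 reached the minimum, with a median of -0.09. Over 2-fold, 1 was lower and 1 higher (6.25% each, beside 6.90% and 4.58% of all genes). THBS1, a thrombospondin, which frees TGFβ from its propeptide, had 78881 counts in the parent line and 11477 in LM2 and was 6.78-fold lower. MMP2, a gelatinase that can cleave the latent complex, had 4 and 244 counts, a 61.8-fold higher level with an interval from 23.8 to 229. It reached the minimum only through LM2, the column where it is high. Within 2-fold, ITGB3 was 1.57-fold lower and MMP14, a membrane protease, 1.49-fold higher.

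The other type I and type II receptors of the family leaned slightly upward, with 7 of 8 above 0 and a median of 0.22. Of those 7, the intervals of ACVR1B, ACVR1C and ACVR2B took in 0. BMPR1B, a type I receptor for bone morphogenetic proteins, had 142 and 368 counts (2.63-fold higher). It was the only 1 over 2-fold (12.5% of the 8, beside 4.58% of all genes on the higher side). BMPR2 was 1.66-fold lower, and ACVR1C (53 and 65 counts) and BMPR1A (1.18-fold higher) followed in size. Activin and nodal class genes included 7 at the minimum, of which 3 were over 2-fold lower (42.9%, beside 6.90% of all genes). Their median was -0.01, and -1.58 with a minimum of 200 counts, which tests fewer genes. INHBB, a subunit of activin B, had 2353 and 354 counts (6.56-fold lower). FST and FSTL3, secreted traps for activin, were 3.33-fold and 2.99-fold lower. GDF11, a ligand of the activin class, was 1.58-fold higher.

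Receptor regulators and SMAD proteins lay mostly below 0, with 18 of 25 lower and a median of -0.46. SMAD2, SMAD3 and SMAD4 had log2 ratios of -0.56, -0.57 and -0.70, close to that of TGFBR1. SMAD7, the inhibitor that the study is about, had 605 and 508 counts, a ratio of -0.23. SMAD genes were named after their values were seen. ARRB2, an arrestin that takes part in receptor uptake, was 2.05-fold lower (1.79 to 2.35). It was the only 1 past 2-fold (4% of the 25, beside 6.90% of all genes on the lower side). On the log2(RPKM + 0.1) and log2(RPKM + 1) scales it was not past it. STRAP, a receptor-associated protein, was 1.81-fold higher, HTRA1, a secreted protease, 1.76-fold lower, and SKIL, a SMAD co-repressor, 1.63-fold lower.

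Response genes of TGFβ were spread widest. Of 22 at the minimum, 5 (22.7%) lay past 2-fold on the lower side and 3 (13.6%) on the higher side. The shares of all genes were 6.90% and 4.58%, and the median of the list was -0.68. CCN2, connective tissue growth factor, had 9075 and 2262 counts (3.96-fold lower). On the other side, ANGPTL4 had 193 and 1253 counts (6.58-fold higher) and PTHLH, parathyroid hormone-like hormone, 31 and 155 (5.07-fold higher). PTHLH reached the minimum only through LM2, the column where it is high. On the log2(RPKM + 1) scale, 1 gene of the list was over 2-fold higher, in place of 3. These genes also answer to pathways other than TGFβ.

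**Figure D5:**
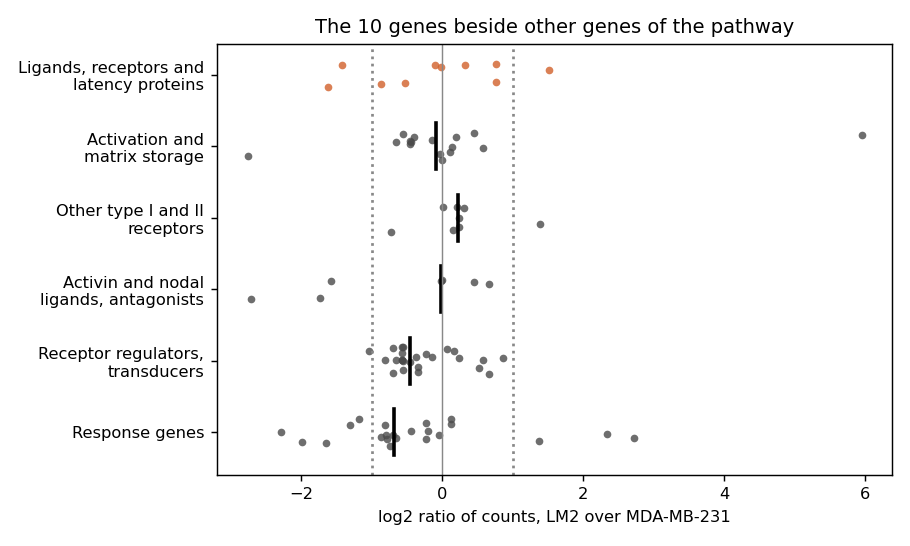
Log2 ratio of counts, LM2 over MDA-MB-231, for the 10 genes (orange) and for the genes of 5 pathway lists with a mean of at least 50 counts (grey points, black bar at the median). The medians of the 5 lists run from -0.68 in response genes to 0.22 in other receptors, and MMP2 is the point at far right.

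Over the 2 cell lines, the list genes with ratios nearest to that of TGFB2 were IL11, a cytokine, at 0.11 away on the log2 scale and FSTL3 at 0.16 away. Nearest to ENG were BMPR1B at 0.12 away and COL1A1, a collagen chain, at 0.15 away. With 1 value per line, likeness of ratio carries little.

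Position on the chromosome was compared next, by the 15 nearest tested genes on each side. ENG, on chromosome 9, had a higher ratio than all 30 of its neighbours, whose median was -0.26. TGFBR3, on chromosome 1, was above 29 of 30 around a median of 0.25, and LTBP1, on chromosome 2, above 28 of 30 around a median of -0.34. TGFB1, on chromosome 19, was below 26 of 30. Among all genes tested, the ratios of TGFBR3, LTBP1 and TGFB1 lay at percentiles 92.8, 92.7 and 8.71, so such counts are near those of genes anywhere. TGFBR1, on chromosome 9, was below 25 of 30, and TGFB3, on chromosome 14, above 21 of 30. TGFBR2, on chromosome 3, was below 22 of 30, and LTBP2, on chromosome 14, above 13 of 30.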

How the data were processed

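Total RNA of MDA-MB-231 and LM2 was sequenced. The labels list 4 samples, and the files have 1 column of counts and 1 of RPKM per line. Per the submitters' processing notes the authors used bcl2fastq, TopHat2 (version 2.0.13) and hg19 (GRCh37). Not given in the sources used here are the counting program, strand setting and annotation. Read counts per transcript, as deposited, were not altered. The RPKM that the authors deposited equals count over listed length and column total to a relative difference of at most 4.98e-06. Reads shared by transcripts can enter the totals more than once.

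Symbols were paired for 62331 of 65423 transcripts (33714 NM_, 6795 NR_ and 21822 ENST) through GENCODE 29 and RefSeq tables of GRCh38.p14. All coordinates are of GRCh38, and none of hg19 were converted. edgeR's quasi-likelihood test, set for the comparison, needs a column per sample and was not run. Ratios, their exact intervals and a 2-fold limit at a mean of at least 50 counts stood in its place, and a count of 0 was set to 3 where a ratio was formed. No ratio was formed where both counts were 3 or less. Intervals were tested on simulated counts.

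Members, lists and rules were chosen with earlier results of these data known. Named genes were all members and their transcripts, up to 4 genes per list by size of ratio, and endothelial markers at or above 50 counts. Also named were the 2 list genes nearest in ratio to TGFB2 and to ENG, tested genes next to TGFB2 and genes antisense to a member. Other names are marked or stand as marker ranges, and some named by these rules are not reported here. Alternatives were TMM and upper-quartile factors (edgeR 4.0.16), size factors (DESeq2 1.42.0), other totals, pseudocounts on RPKM, other minimums and other transcript choices. Versions were Python 3.11.15 (numpy 2.4.6, pandas 2.3.3, scipy 1.17.1, matplotlib 3.10.9) and R 4.3.3.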

Additional observations from a re-analysis of the deposited data

How the results depend on the processing

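All 10 genes kept the sign of their log2 ratio under the 10 other settings run for them, and none reversed. TMM, upper-quartile and DESeq2 scaling moved every ratio by at most 0.0016. Column totals without the 12 transcripts of highest mean count moved them by -0.067, which put TGFB2 at -1.48, and totals over NM_ transcripts by -0.056. Under these last 2 scalings the intervals of TGFBR2 and LTBP2 no longer took in 0. On the log2(RPKM + 1) scale, which pulls low levels together by its construction, TGFB2 was at -1.22, TGFB2-AS1 at -1.31 and ENG at 0.60, no member was over 2-fold higher (0 in place of 1), and the 5 lists together had 1 gene over 2-fold higher and a median of -0.19. MMP2, BMPR1B and ARRB2 were not past 2-fold on that scale. With a minimum of 200 counts, which tests fewer genes, the lists had 3 genes over 2-fold higher, and the activin and nodal list had a median of -1.58, the lowest of the 5. Of the values for the comparisons, 85 under alternatives stayed close to those reported and 8 moved, and of the others 229 stayed close and 21 moved. Values counted as close were not all equal. With no minimum count, which takes in more genes, the 5 lists together had 14 genes over 2-fold lower in place of 10. They had 7 over 2-fold higher in place of 5, and both were counted as close.

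No paired analysis was possible because the table has 1 column per cell line, and for the same reason no replicate was left out and the spread between cultures is unknown. Depth limits TGFB3, at 140 and 173 counts, and ENG, at 161 and 455.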
